A study of Drosophila melanogaster with 12 samples.

Results

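The transcripts described here are those whose level was raised by knockdown of CP190 at every hour of hormone treatment that was sampled. Of 16637 transcripts on the array, 125 were chosen by measured values. A group value was the mean log2 intensity of its 2 replicates, and the CP190 effect was CP190 RNAi minus control RNAi at the same hour. A member had a CP190 effect of 0.5 or more at 0, 3 and 48 h and a highest group over 1 above the random-sequence control on the log2 scale. Its change under hormone, averaged over both RNAi arms, lay within 0.4 of zero at 3 h and within 1.5 at 48 h. Transcripts with a larger mean hormone change were thus left out, while a member could change by more in a single arm. Because these limits use all 6 group means, the CP190 effects, hormone changes and levels below are a description of the members and not evidence for them.

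The arrays came from Kc cells, a Drosophila melanogaster line of embryonic origin, with 2 biological replicates in each of 6 groups. CP190 RNAi cells were collected after 0, 3 or 48 h of 20-hydroxyecdysone (20HE, the insect moulting hormone), and control RNAi cells, which received double-stranded RNA against beta-galactosidase, after the same hours. The 0 h groups received no hormone. Every group had therefore received an RNAi trigger. The extraction protocol mentions a second line, Mbn2, but all 12 titles name Kc. The sources used here give neither the hormone dose, nor the length of RNAi, nor the amount of CP190 left. Nor do the labels say what the biological replicates share, so the spread between them may be partly technical.

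As background, CP190 is a zinc-finger protein with a BTB domain that does not recognise most of its sites alone. It is brought to chromatin by DNA-binding insulator proteins such as CTCF, Su(Hw) and BEAF-32, and it is found at active promoters and at the borders of chromosomal domains. 20HE acts through a receptor made of EcR and Usp, which switches on a first set of transcription factor genes and through them later gene sets.

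The deposited values are listed by FlyBase transcript identifier with no gene symbol. A RefSeq gene table (Release 6 assembly) listed 44 of the identifiers on the array, and 0 of the 125 members were among them, so members are given by identifier without a gene, a role or a position. The RNA of Cp190 itself and the markers of Kc and other cell types could not be looked up for the same reason. Of 141 genes in 16 lists, 3 were named on the array (kis, a trithorax-group chromatin remodeller, His4r, a replacement gene for histone H4, and HDAC3, a histone deacetylase), and none of these was a member. Their CP190 effects at the 3 hours lay between -0.28 and 0.10 on the log2 scale, with limma adjusted p-values of 0.148 to 0.984.

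Arrays were alike in scale, with medians of 1136 to 1227, and replicate arrays correlated across transcripts by 0.994 to 0.997. The random-sequence control read 413 to 425 and marks the background. A transcript is called near background below when it lies within 1.5-fold of that control on both arrays of a group. Folds over a group near background are bounds, taken against 1.5 times the random-sequence control and written as "at least". Intensities also depend on the probes of each transcript, so differences between transcripts in intensity say how far each was measured above background and not which is more abundant.

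The CP190 effect of the members had nearly the same median at each hour. It was 0.86 at 0 h, 0.87 at 3 h and 0.83 at 48 h on the log2 scale, beside medians of -0.01, -0.02 and -0.01 over all 16637 transcripts. Averaged over the 3 hours, the 104 members with no control group near background ranged from 0.52 to 1.78, which is 1.43-fold to 3.44-fold, with a median of 1.83-fold. Control groups with only 1 of 2 arrays within 1.5-fold of the random-sequence control are among these. They keep their fitted folds, which may be too small. For the other 21 members the fitted effect is no exact fold at 1 hour or more. With those control groups at their bound, the median over all 125 was 0.84 at 0 h, 0.86 at 3 h and 0.81 at 48 h. Most of the shifts were under 2-fold. In RNA from a whole culture, more RNA per cell and more cells of a kind cannot be told apart. By fitted effects, the number at 2-fold or more was 44 at 0 h, 46 at 3 h and 38 at 48 h. The shares of all transcripts were 0.878%, 0.89% and 0.631%. At all 3 hours 21 members were at 2-fold or more by fitted effects (0.144% of all transcripts). These counts include effects over control groups near background, where the bound can lie under 2-fold. For FBtr0070207 at 3 h the fitted effect was 1.03 and the bound at least 0.54.

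By the rule all 125 were at 0.5 or more at each hour, beside 3.63% of all transcripts at 0 h, 3.67% at 3 h, 2.64% at 48 h and 0.962% (160 transcripts) at all hours. The limma fit across all transcripts called 112 members higher in CP190 RNAi cells at 0 h, where it called 4.45% of all transcripts higher. It called 119 members at 3 h, beside 4.33% of all, and 103 at 48 h, beside 3.17% of all. With the replicate number as a block these became 124 at 0 h (7.99% of all transcripts), 124 at 3 h (7.35%) and 125 at 48 h (5.41%). The members were chosen on these contrasts, so the counts say only how many of the chosen transcripts also had a small enough spread. It called 0 members lower at 0, 3 and 48 h, beside 2.89%, 1.88% and 2.02% of all transcripts, as the rule fixes.

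FBtr0112532 had the highest fitted CP190 effect averaged over the hours, at 2.29, or at least 2.26 with its 48 h control group at the bound. FBtr0112532 had intensities of 4514 and 3572 at 0 h, 3619.5 and 2686 at 3 h, and 4116 and 3930.2 at 48 h after CP190 RNAi. Control RNAi arrays gave 949 and 867 at 0 h, 845 and 769.7 at 3 h, and 564 and 619 at 48 h. The groups did not overlap at any hour, and the effect was 2.15 ± 0.14 at 0 h, 1.95 ± 0.14 at 3 h and 2.77 ± 0.14 at 48 h (limma SE, n = 2 arrays a group). The 48 h control arrays lay near background, so the fold at that hour is given as at least 6.48. FBtr0083324 came next by the fitted mean, at 2.04, or at least 1.95 with its 0 h control group at the bound. Since both are bounds, the order of these transcripts is not fixed by the data. On the CP190 RNAi arrays FBtr0083324 measured 3586 and 3896 at 0 h, 3328 and 3707 at 3 h, and 2720.3 and 2867 at 48 h. The values after control RNAi were 474 and 564 at 0 h, 515 and 640.3 at 3 h, and 1609 and 1925 at 48 h. Its effect was 2.85 ± 0.13 at 0 h (at least 5.91-fold, with both control arrays near background) and 2.61 ± 0.13 at 3 h, where 1 of 2 control arrays was near background. At 48 h it was 0.67 ± 0.13, or 1.59-fold, and the groups still did not overlap. FBtr0079549 had the next highest effects at 0 and 3 h, 2.20 ± 0.16 and 2.19 ± 0.16. Intensities of FBtr0079549 were 4512 and 3129 at 0 h, 3707 and 3084 at 3 h, and 7400.1 and 6119 at 48 h in CP190 RNAi cells. Those in control RNAi cells were 772 and 867 at 0 h, 745 and 738 at 3 h, and 3605 and 3349 at 48 h. Both arms were higher at 48 h than at 0 h, control cells by more, and the groups did not overlap at any hour.

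**Figure D1:**
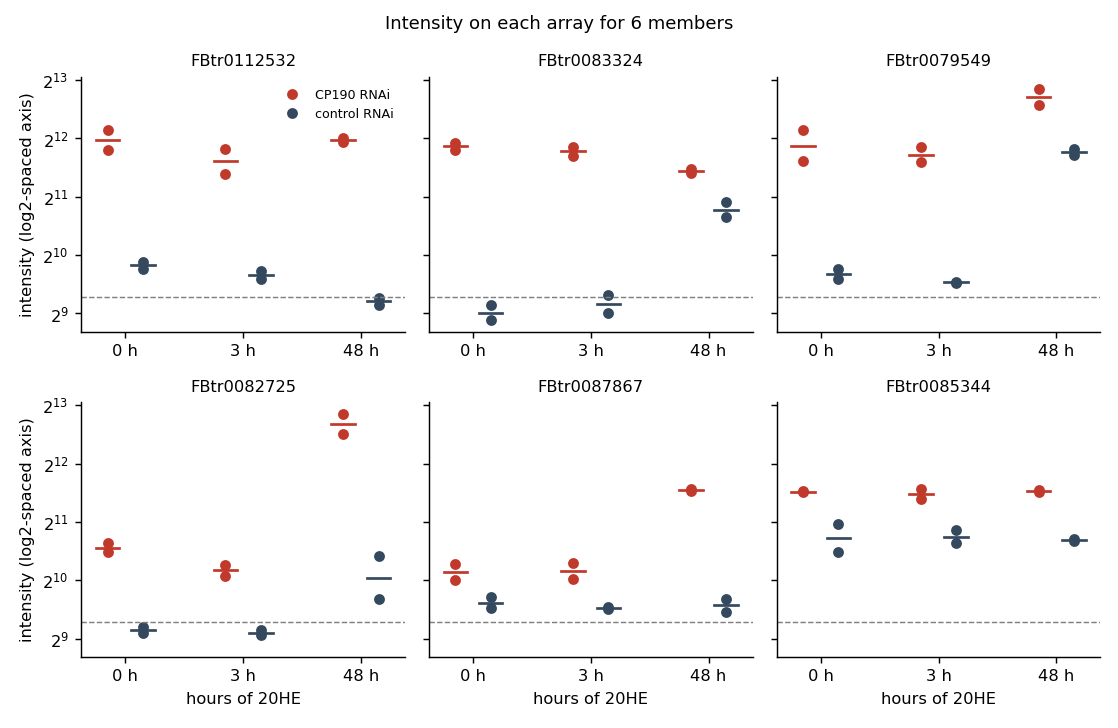
Intensity of 6 members on each of the 12 arrays, on a log2-spaced axis, by hours of 20HE. Points are arrays, bars are group means of log2 values, and the dashed line is 1.5 times the mean random-sequence control (626). CP190 RNAi points lie above the control RNAi points of the same hour in every panel, and the 48 h distance is wide in FBtr0082725 and narrow in FBtr0083324.

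Most members were measured above background in both arms. At 0 h they lay a median of 2.78 above the random-sequence control on the log2 scale in CP190 RNAi cells and 1.81 in control RNAi cells, while all transcripts had medians of 1.48 and 1.45. In control cells the quartiles were at 0.91 and 2.60 for members, and at 0.20 and 3.53 for all transcripts. The quartiles of the members thus lay closer together than those of all transcripts. The height limit had left out transcripts near background in all groups, so this follows in part from the rule. The members' highest group was CP190 RNAi at 0 h for 51, at 3 h for 16 and at 48 h for 58.

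**Figure D2:**
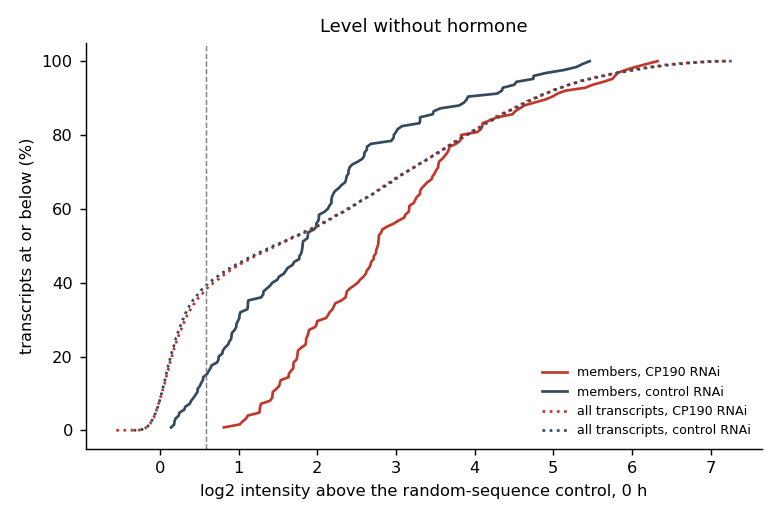
Cumulative percent of transcripts against log2 intensity above the random-sequence control at 0 h. Solid lines are the 125 members, dotted lines all 16637 transcripts, red CP190 RNAi and dark blue control RNAi, and the dashed line marks 1.5-fold of the control. The dotted lines nearly coincide, and the members' CP190 RNAi line lies right of their control RNAi line.

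A minority of members was near background in control cells. The number near background in CP190 RNAi cells was 0 at 0 h, 0 at 3 h and 1 at 48 h, against 13, 15 and 13 of 125 in control RNAi cells, where 38.3%, 38.2% and 37.1% of all transcripts were. Of the 125, 21 were near background in control cells at 1 hour or more, so their folds at those hours are bounds. In all 3 control groups but no CP190 RNAi group, 5 members were near background, beside 0.246% of all transcripts. They were FBtr0070207, FBtr0074620, FBtr0078763, FBtr0080239 and FBtr0080240, listed after their values were seen. The brightest of the 5 was FBtr0080239. The arrays of FBtr0080239 read 2165 and 1769.6 at 0 h, 2197 and 1799.8 at 3 h, and 2599 and 2197 at 48 h in CP190 RNAi cells. In control RNAi cells they read 539 and 546 at 0 h, 515 and 526 at 3 h, and 514 and 504 at 48 h. Every CP190 array was over 1.5 times the random-sequence control, and the folds are at least 3.09, 3.12 and 3.85 at 0, 3 and 48 h. FBtr0080616 was near background in both arms at 48 h, with 587 and 547 in CP190 RNAi cells and 351 and 368 in control RNAi cells, so no fold is given there although the log2 difference of 0.66 met the limit (also listed after its values were seen).

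At the ends of the intensity scale, FBtr0076187 and FBtr0078782 were the brightest members and FBtr0070207 and FBtr0080240 the dimmest. FBtr0076187 had intensities of 30802 and 29862 at 0 h, 30282 and 28403 at 3 h, and 35466 and 34626 at 48 h after CP190 RNAi. Control RNAi arrays gave 16881 and 17661 at 0 h, 18115 and 17832 at 3 h, and 23464 and 25482 at 48 h. The CP190 effect was 0.81 ± 0.08, 0.71 ± 0.08 and 0.52 ± 0.08 at 0, 3 and 48 h, with no overlap at any hour. On the CP190 RNAi arrays FBtr0078782 measured 35628 and 31557 at 0 h, 33614 and 31377 at 3 h, and 26767 and 24877 at 48 h. The values after control RNAi were 18887 and 17997 at 0 h, 19619 and 12551 at 3 h, and 14807 and 13031 at 48 h. Its 2 control arrays at 3 h lay far apart but below both CP190 arrays. Only these members exceeded 32768 on any array, where the scanner's scale may flatten differences. Intensities of FBtr0070207 were 936 and 850.4 at 0 h, 999 and 861 at 3 h, and 749 and 688 at 48 h in CP190 RNAi cells. Those in control RNAi cells were 481 and 468 at 0 h, 473 and 438 at 3 h, and 450.2 and 406 at 48 h. All 6 control arrays lay near background, and the CP190 arrays lay above them at every hour. FBtr0080240 read 809 to 885 on the CP190 RNAi arrays and 426 to 488 on the control RNAi arrays, and its folds are at least 1.33, 1.30 and 1.41 at 0, 3 and 48 h.

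Array by array, the CP190 arrays of a member nearly always lay above the control arrays. Both CP190 arrays were above both control arrays for 125 members at 0 h, 125 at 3 h and 124 at 48 h, and for 124 at all 3 hours, beside 22.3%, 21.6%, 22.8% and 6.46% of all transcripts. The exception at 48 h was FBtr0073362, with 1212 and 869.8 in CP190 RNAi cells and 892 and 551 in control RNAi cells. Within arrays of the same replicate number, the effect was above zero in all 6 pairs for 125 members (10.3% of all transcripts) and at 0.5 or more in all 6 pairs for 76 (0.589% of all). For 87 members every one of the 6 CP190 arrays was above every one of the 6 control arrays regardless of hour, as for 2.0% of all transcripts.

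To read the effect in arrays that had not chosen the transcripts, the same limits were applied to the arrays of one replicate number and the effect was read in the other number. Replicate 1 alone chose 140 transcripts, whose median effects at 0, 3 and 48 h were 0.87, 0.83 and 0.71 in replicate 2, against 0.90, 0.87 and 0.81 in the arrays that chose them. Of the 140, 137 were above zero at all 3 hours in replicate 2 (97.9%, beside 18.6% of all transcripts) and 77 were at 0.5 or more at all 3 (55%, beside 0.805%). Replicate 2 alone chose 102, whose medians were 0.94, 0.86 and 0.90 in replicate 1, against 0.98, 0.92 and 0.88 in replicate 2. All 102 were above zero at all 3 hours in replicate 1 (beside 20.9% of all transcripts) and 72 were at 0.5 or more (70.6%, beside 1.06%). In the other arrays the direction held in all but 3 cases, while the exact limit of 0.5 at every hour held for fewer. The limits had been chosen with earlier results of these data known. Arrays of both numbers may have been normalised together, and the spread between replicates may be partly technical. The other arrays are thus no independent check of the direction, and the counts are a description. The sets chosen here overlap with the members but are not the same, and the shares of all transcripts include many near background. Transcripts are not replicates, so no test is given.

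**Figure D3:**
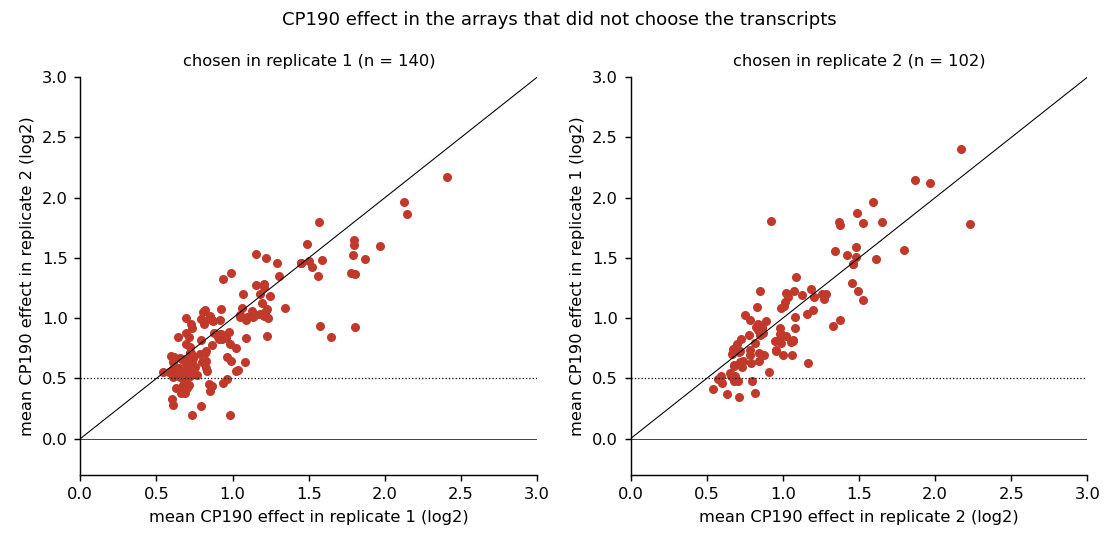
Mean CP190 effect over 3 hours (log2) in the arrays that did not choose the transcripts, against the effect in the arrays that did. Left, the 140 transcripts chosen in replicate 1, and right, the 102 chosen in replicate 2. The diagonal marks equal effects and the dotted line 0.5, and every point lies above zero on both axes.

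At 3 h of hormone the members' CP190 effect was close to its 0 h size. The effect at 3 h minus that at 0 h had a median of -0.01 and ran from -0.44 to 0.41, with 110 of 125 members within 0.25. The effects at 0 and 3 h, which share no array, correlated across the 125 members by 0.93 (Spearman 0.87), as a description over transcripts that share the same arrays and were all held above 0.5 by the rule. Limma called this difference for 0 members and 0 transcripts in all, with 0 members and 403 transcripts at an unadjusted p under 0.05. The fit with the replicate block called 0 members as well, beside 0.024% of all transcripts called lower and 0% higher. In that fit 4 members (3.2%) had an unadjusted limma p under 0.05. The share of all transcripts under that p was not counted with the block, so the 4 describe the members only. The hormone change itself at 3 h had a median of -0.07 in CP190 RNAi cells and -0.08 in control RNAi cells, and no member moved beyond 0.5 in either arm, where the rule had limited the mean of the arms to 0.4. Limma called 1 member for the 3 h change averaged over both arms, lower (FBtr0078810, listed for this call), beside 0.577% of all transcripts called lower. With the replicate block it called 4 lower (1.42% of all transcripts), adding FBtr0081276, FBtr0084827 and FBtr0112635. Neither fit called a member higher, beside 1.33% of all transcripts without the block and 2.13% with it. Leaving out single arrays moved this count to between 0 and 3. The count was 0 without CP190 0 h replicate 1, CP190 3 h or 48 h replicate 1 or 2, or control 0 h replicate 1, 3 without control 3 h replicate 1 and 2 without control 0 h replicate 2. Without control 3 h replicate 2 it called 0 members lower and 1 higher.

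FBtr0081191 and FBtr0084827 marked the ends of the mean 3 h change. FBtr0081191 changed by 0.29 in CP190 RNAi cells and 0.35 in control RNAi cells, and read 1263 and 1502 in CP190 RNAi cells at 3 h and 916 and 765 in control RNAi cells. FBtr0084827 changed by -0.43 in CP190 RNAi cells and -0.28 in control RNAi cells. The arrays of FBtr0084827 read 2517 and 3799.7 at 0 h, 1806 and 2919.8 at 3 h, and 2302 and 2882 at 48 h in CP190 RNAi cells. In control RNAi cells they read 1256 and 1317 at 0 h, 1014 and 1101 at 3 h, and 746 and 919 at 48 h. Its 2 CP190 arrays of 0 h lay farther apart than its 0 h and 3 h means, while control arrays lay closer together. The steadiest members over the hours were FBtr0085344 and FBtr0074595, with the smallest SD of group means within an arm (0.026 and 0.039). FBtr0085344 had intensities of 2917 and 2950.3 at 0 h, 3051 and 2688 at 3 h, and 3012 and 2913 at 48 h after CP190 RNAi. Control RNAi arrays gave 2004 and 1435 at 0 h, 1865 and 1593 at 3 h, and 1685 and 1634 at 48 h. FBtr0074595 read 932 to 1026 on its CP190 RNAi arrays and 617 to 759.7 on its control RNAi arrays.

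**Figure D4:**
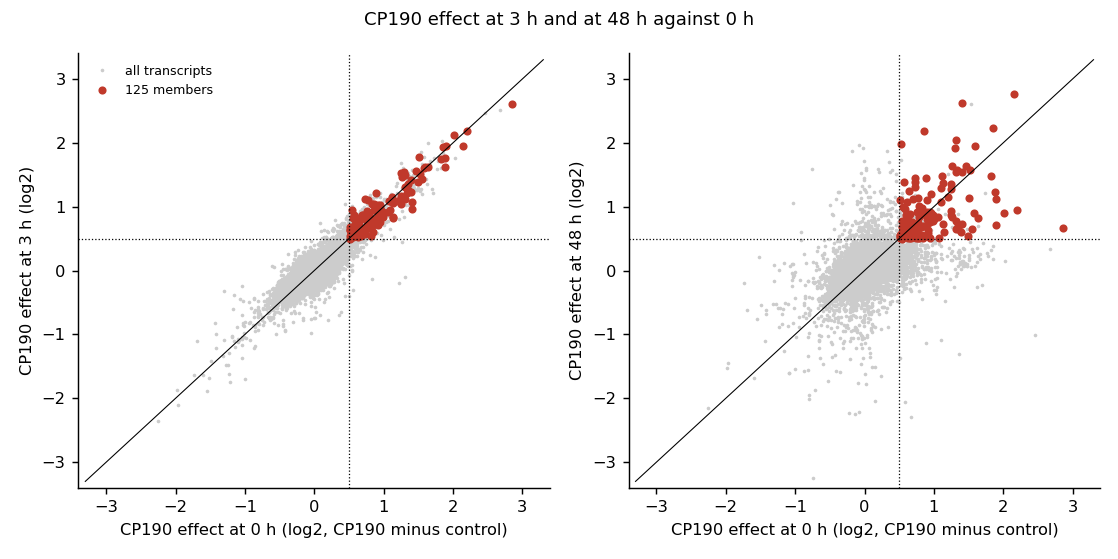
CP190 effect (log2, CP190 RNAi minus control RNAi) at 3 h (left) and 48 h (right) against that at 0 h. Grey points are all 16637 transcripts, red points the 125 members, dotted lines the limit of 0.5 and the diagonal equal effects. Members follow the diagonal at 3 h (correlation 0.93) and spread around it at 48 h (0.38).

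At 48 h of hormone the members differed from 0 h in both directions. The change from 0 h ran from -1.26 to 2.11 in CP190 RNAi cells, with a median of -0.03. It ran from -1.18 to 2.09 in control RNAi cells, with a median of 0.02. Changes above 0.5 were seen in 26 members in CP190 RNAi cells (7.95% of all transcripts) and 29 in control RNAi cells (8.46%). Changes below -0.5 were seen in 24 in CP190 RNAi cells (7.77%) and 22 in control RNAi cells (7.99%). The shares of all transcripts include many near background, while every member met the height limit. Shares among transcripts that meet that limit were not counted, so a higher share among members is not read as a trait of theirs. For the change averaged over both arms limma called 42 members higher and 42 lower, beside 17.2% and 21.6% of all transcripts, and the rule had limited this change to under 1.5. The change had the same sign in both arms for 99 of the 125. The share of all transcripts with the same sign was not counted, so this describes the members only.

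FBtr0082725 and FBtr0074410 had the most positive fitted mean change at 48 h, and FBtr0088552 and FBtr0084215 the most negative. On the CP190 RNAi arrays FBtr0082725 measured 1602 and 1431 at 0 h, 1085 and 1228 at 3 h, and 5799.6 and 7364 at 48 h. The values after control RNAi were 551 and 592 at 0 h, 534 and 569 at 3 h, and 818 and 1368 at 48 h. It was near background in control cells at 0 and 3 h, so its folds there are at least 2.39 and 1.81, and at 48 h its effect was 2.63 ± 0.19. The 48 h CP190 arrays stood above every other array. Intensities of FBtr0074410 were 1987 and 1696 at 0 h, 2087 and 1642 at 3 h, and 5699 and 5129.6 at 48 h in CP190 RNAi cells. Those in control RNAi cells were 1368 and 1171 at 0 h, 1362 and 1114 at 3 h, and 3518 and 3265 at 48 h. The 48 h change was 1.56 in CP190 RNAi cells and 1.42 in control RNAi cells, and the CP190 effect was 0.54 at 0 h and 0.67 at 48 h, with no overlap. The arrays of FBtr0088552 read 2943 and 2358 at 0 h, 2718 and 2326 at 3 h, and 1146 and 1074 at 48 h in CP190 RNAi cells. In control RNAi cells they read 1921 and 1493 at 0 h, 1514 and 1622 at 3 h, and 766 and 769.9 at 48 h. The 48 h change was -1.25 in CP190 RNAi cells and -1.14 in control RNAi cells, and CP190 arrays lay above control arrays at every hour. For FBtr0084215 the change was -1.16 in CP190 RNAi cells and -1.18 in control RNAi cells, with a CP190 effect of 0.51 ± 0.14 at 0 h and 0.54 ± 0.14 at 48 h.

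Among the members, the size of the CP190 effect at 48 h was only loosely tied to its size at 0 h. These effects correlated across members by 0.38 (Spearman 0.38). The rule held both at 0.5 or more, which can lower a correlation, and the 48 h limit alone left out 246 transcripts. The difference, 48 h minus 0 h, ran from -2.19 to 1.46. It lay within 0.5 for 94 members, above 0.5 for 13 and below -0.5 for 18, beside 2.07% and 2.93% of all transcripts. Here too the shares of all transcripts include many near background. The difference in effect is the 48 h change in CP190 RNAi cells minus that in control RNAi cells. A split by it therefore fixes the order of the arms, and the values that follow are a description. Among the 18 with a smaller effect at 48 h, 5 were higher at 48 h than at 0 h in CP190 RNAi cells and 13 in control RNAi cells. The median change was -0.38 in CP190 RNAi cells and 0.42 in control RNAi cells. Among the 13 with a larger effect, 9 were higher at 48 h in CP190 RNAi cells and 4 in control RNAi cells, with median changes of 0.18 in CP190 RNAi cells and -0.42 in control RNAi cells. The effect was largest at 0 h for 43 members, at 3 h for 34 and at 48 h for 48. Limma called the difference for 4 members upward and 5 downward, beside 0.823% and 1.36% of all transcripts, and for 9 upward and 12 downward with the replicate block, beside 1.73% and 2.63%. The upward ones were FBtr0087867, FBtr0087915, FBtr0082725 and FBtr0113220, and the downward ones FBtr0083324, FBtr0079549, FBtr0081933, FBtr0113204 and FBtr0080616, the last of which was near background in both arms at 48 h. FBtr0113220, FBtr0081933, FBtr0113204 and FBtr0080616 are listed for being called. Leaving out CP190 0 h replicate 1 gave 5 calls, and leaving out CP190 48 h replicate 2 gave 4. The hours compared are those the rule used, so these calls are a description.

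The CP190 effect of FBtr0087867 and FBtr0087915 grew the most between 0 and 48 h. FBtr0087867 had intensities of 1027 and 1241 at 0 h, 1046 and 1257 at 3 h, and 2965 and 3024 at 48 h after CP190 RNAi. Control RNAi arrays gave 740.1 and 838 at 0 h, 746 and 728 at 3 h, and 707 and 819 at 48 h. Control levels stayed between 707 and 838 on all 6 arrays, while the CP190 level at 48 h was above every other array, and the effect was 0.52 ± 0.12 at 0 h and 1.98 ± 0.12 at 48 h. On the CP190 RNAi arrays FBtr0087915 measured 1274 and 1063 at 0 h, 1612 and 1286 at 3 h, and 4750.3 and 4881 at 48 h. The values after control RNAi were 745 and 551 at 0 h, 819 and 689 at 3 h, and 1056 and 1072 at 48 h. At 0 h, 1 of its 2 control arrays was near background. Its 48 h CP190 arrays were likewise above all others, and its CP190 effect was 0.86 ± 0.15 at 0 h and 2.18 ± 0.15 at 48 h. FBtr0083324 and FBtr0079549, whose arrays are given above, had the most negative differences of -2.19 ± 0.18 and -1.25 ± 0.22. The 0 h control group of FBtr0083324 was near background, so its difference is -1.90 or more negative with that group at the bound. In FBtr0083324 the 48 h change was -0.42 in CP190 RNAi cells and 1.77 in control RNAi cells as fitted over that 0 h group, and in FBtr0079549 it was 0.84 in CP190 RNAi cells and 2.09 in control RNAi cells.

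**Figure D5:**
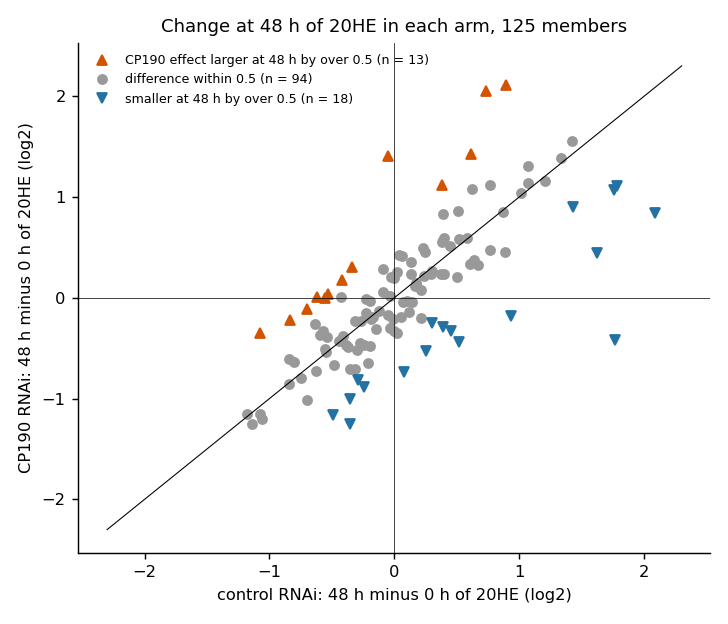
Change from 0 to 48 h of 20HE (log2) of the 125 members, in CP190 RNAi cells on the vertical axis and control RNAi cells on the horizontal axis. Points on the diagonal kept their CP190 effect. Orange triangles are the 13 members with an effect larger by over 0.5 at 48 h, blue triangles the 18 with one smaller by over 0.5 and grey points the other 94.

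The difference between replicates is independent of the group means that chose the members, so it could be tested. Limma called replicate 2 minus replicate 1 for 36 members, 12 higher in replicate 2 and 24 lower. That is 9.6% and 19.2% of the members, beside 8.25% and 6.33% of all transcripts. Among the 9879 transcripts that meet the height limit it called 13.3% higher and 9.15% lower. The median difference was -0.08 for members and 0.03 for those 9879. The most negative was FBtr0077152, at -0.59 ± 0.083 (limma adjusted p = 0.00113), which was lower in replicate 2 in 6 of 6 groups. Intensities of FBtr0077152 were 5568 and 3966 at 0 h, 5249.8 and 3861 at 3 h, and 9517 and 8033 at 48 h in CP190 RNAi cells. Those in control RNAi cells were 2764 and 1296 at 0 h, 2187 and 1515 at 3 h, and 6575 and 3956 at 48 h. Within each group the replicate 1 array was the higher one, and CP190 arrays lay above control arrays at every hour. FBtr0073362 followed at -0.45 ± 0.060 (limma adjusted p = 0.000792). FBtr0071053 and FBtr0074094 were highest in replicate 2, by 0.46 ± 0.095 and 0.38 ± 0.045 (limma adjusted p = 0.00757 and 0.000456). The spread within groups, given as a description, was also wider for members, with a median SD of 0.16 on the log2 scale against 0.12 for the 9879. With the replicate number in the fit it was 0.12 against 0.09. What the replicate numbers stand for is not given in the labels.

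Members need not be separate measurements. Of the 125, 23 fell in 10 runs of consecutive identifiers, the longest of 4 (FBtr0075094 to FBtr0075097), whose mean CP190 effects differed by at most 0.24. Mean effects within a run differed by 0.0018 to 1.13, with a median range of 0.13. The widest of these, FBtr0080239 and FBtr0080240, were near background in control cells at all hours, so their distance of 1.13 is between fitted values and is not fixed by the data. The files do not say whether transcripts with consecutive identifiers share a gene or probes, so the number of separate genes among the 125 is unknown.

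Membership near the limits of the CP190 effect is a matter of hundredths. The member nearest the 0 h limit, FBtr0077266, had a CP190 effect of 0.513, and the nearest transcript left out by that limit alone, FBtr0085128, had 0.483. At 3 h the values were 0.501 for FBtr0073362 inside and 0.493 for FBtr0076428 outside, and at 48 h 0.502 for FBtr0077225 inside and 0.498 for FBtr0114155 outside. The 48 h limit alone left out 246 transcripts, the 0 h limit 10 and the 3 h limit 14. For the hormone limits, the mean 48 h changes nearest 1.5 were 1.4998 inside (FBtr0082725) and 1.62 outside, and those nearest -1.5 were -1.19 inside and -1.53 outside. At 3 h they were 0.319 inside and 0.444 outside for the upper limit, and -0.356 and -0.511 for the lower. The height limit left out 0 transcripts by itself, and the lowest member's highest group was 1.05 above the random-sequence control.

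With every sign of the CP190 effect turned round, the same limits chose 52 transcripts, so 70.6% of both sets together were raised. This share was 66.9% after centring each array on its median and 69.9% after quantile normalisation. The raised set stood at a median of 2.78 above the random-sequence control in CP190 RNAi cells and 1.81 in control RNAi cells at 0 h. The lowered set stood at 1.89 in CP190 RNAi cells and 2.83 in control RNAi cells. The difference between the sets was not tested, since the rule fixes its direction.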

How the data were processed

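Expression was measured on 12 single-colour NimbleGen arrays labelled with Cy3, per the labels' protocols, with 8 probes per gene per the labels' design text. The authors deposited intensity values that read as linear, in a single table, and the submitters' processing notes name RMA, a method that corrects background, quantile-normalises arrays and summarises probes. No RMA version, annotation release or genome build is given in the sources used here. Background left in dim values makes folds of dim transcripts too small.

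From the deposited values log2 intensities were taken without pseudocount, filter or further normalisation. A model of 6 group means was fitted by limma (version 3.58.1, R 4.3.3, lmFit and eBayes, 6 residual degrees of freedom), with two-sided tests and Benjamini-Hochberg adjustment over 16637 transcripts at 0.05. The random-sequence control stayed out of the fit. The number of arrays limits the precision.

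Groups share the replicate numbers 1 and 2. Differences between replicates correlated across transcripts by 0.147 to 0.608 over the 15 pairs of groups. The numbers were therefore taken as a possible pairing, and a fit with the replicate number as a block was an alternative. Calls and SEs are from the fit without the block unless stated. With the block most counts of called members were higher, and none was lower. Other alternatives were array centring, quantile normalisation, a trended robust prior, a filter on dim transcripts, the log2 of mean intensities, only the arrays compared, subtraction of the random-sequence control and leaving out each array.

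The members, lists and rules for named transcripts were chosen with earlier results of these data known. Named transcripts are, without gene names, at most 2 at each end of a measure (CP190 effect, its difference between 48 h and 0 h, hormone change, level, evenness over hours, replicate difference) and those nearest a limit.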

Additional observations from a re-analysis of the deposited data

Results flagged for a closer look

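Limma's test of the difference itself, 48 h minus 0 h, called 9 members. The 5 transcripts below are those of the 9 that were also named for the end of a measure. The choice among the 9 was not by adjusted p. FBtr0081933, FBtr0113204, FBtr0080616 and FBtr0113220 were called as well, FBtr0081933 with -1.18 and a limma adjusted p of 0.001. All 9 were also called with the replicate block and under every scaling and prior tried. Without single arrays the difference of FBtr0081933 ran from -1.26 to -1.10. Calls without single arrays are given below only for the 5 transcripts. FBtr0083324 had a difference of -2.19, with fitted effects of 0.67 at 48 h and 2.85 at 0 h. Its 0 h control arrays were near background, so the effect there is at least 2.56 and the difference is -1.90 or more negative. FBtr0079549 had -1.25, with 0.95 at 48 h and 2.20 at 0 h. FBtr0087867 had 1.46, with effects of 1.98 at 48 h and 0.52 at 0 h. FBtr0087915 had 1.32, with 2.18 and 0.86, and FBtr0082725 had 1.22, with fitted effects of 2.63 and 1.41. At 0 h, 1 of 2 control arrays of FBtr0087915 was near background, so its 0 h effect and its difference are not exact. The 0 h control arrays of FBtr0082725 were near background too, so its 0 h effect is at least 1.26 and the difference at most 1.37, and its size is not fixed by the data. The limma adjusted p of FBtr0083324, FBtr0087867 and FBtr0087915 stayed under 0.05 in the fit as designed, with the replicate block, under every scaling and prior tried and without each single array. That of FBtr0079549 was 0.0139, and reached 0.0513 without control 0 h replicate 1, 0.0648 without control 48 h replicate 1 and 0.06 without CP190 48 h replicate 2. That of FBtr0082725 was 0.0439, and rose to between 0.0612 and 0.168 when any of 10 arrays was left out. The exceptions were replicate 1 of CP190 at 48 h and replicate 2 of control at 48 h. These hours chose the members, so the differences are descriptions. No group had the 4 samples that a check for outlying arrays needs.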

How the results depend on the processing

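The number of members was 125 as designed, 113 after centring each array, 123 after quantile normalisation, 124 with the log2 of mean intensities and 104 with a height limit of 2. It was 102 to 140 when single arrays or all arrays of a replicate number were left out. Of the 125, 113 were kept after centring and 116 after quantile normalisation. Without all replicate 1 arrays 88 were kept, and without all replicate 2 arrays 106. The median CP190 effect of the 125 was 0.84 at 0 h and 0.83 at 3 h after centring, 0.85 and 0.86 after quantile normalisation, and 0.88 at 3 h with the log2 of mean intensities. After subtracting the random-sequence control it was 1.18 at 0 h, 1.23 at 3 h and 1.04 at 48 h. Without single arrays it was 0.85 to 0.91 at 0 h, 0.82 to 0.95 at 3 h and 0.78 to 0.86 at 48 h. Members called for the CP190 effect numbered 89 to 113 at 0 h, 85 to 122 at 3 h and 72 to 108 at 48 h without single arrays, and 74 to 84 for the mean hormone change at 48 h. With the replicate block, the members called for the hormone change at 3 h numbered 4 and for the difference of the CP190 effect between 48 h and 0 h 21. Quantile normalisation gave 2 for the hormone change at 3 h, and leaving out single arrays gave 0 to 3. The difference between 48 h and 0 h was called for 4 to 11 members without single arrays. The replicate block gave 124, 124 and 125 for the CP190 effect at 0, 3 and 48 h, 91 for the hormone change at 48 h and 0 for the CP190 effect at 3 h minus 0 h. The replicate difference was called for 35 to 38 members under the alternatives run. Apart from the main fit and the block counts given with shares above, the share of all transcripts called was not counted for these settings. Counts without that share describe the members only. The cause was not tested for any of these shifts. Among 315 values of the mean CP190 effect, for 21 named transcripts under 15 settings, the largest shift was 0.18 and 0 changed sign. The rule held these members at 0.5 or more at every hour, so the sign was close to fixed in advance. The replicate block left these means unchanged. Background in dim transcripts, and 2 arrays per group, limit what the effects can show.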

Other observations

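Another 35 transcripts met the CP190 limits at all 3 hours and the height limit but lay outside the limits of the hormone change. Their median CP190 effects were 0.80 at 0 h, 0.91 at 3 h and 0.82 at 48 h. Of the 35, 13 had a change of 1.5 or more at 48 h of 20HE averaged over both arms, and 15 one of -1.5 or below. The hormone limits left out transcripts with raised levels after CP190 knockdown and a large hormone change in either direction. Identifiers next to a member's belonged to 158 transcripts that were not members. Of these, 54 (34.2%) had a CP190 effect above zero at all 3 hours, as did 20.9% of all transcripts. Whether these share a gene or probes with the member was not tested.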
